A study of Mus musculus with 2 samples.

Results

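The genes described here encode the enzymes that join amino acids to their transfer RNAs, as measured in G1E, an immortalised line of erythroid progenitors from the mouse. They were taken from a fixed list of 36 gene names, of 43346 annotated genes in the tables. Names ending in 2 (16 genes) were counted as mitochondrial enzymes and the other 20 as cytosolic enzymes, a division by name and not by level, although the list was drawn up with earlier results of these data known. All 36 were found, Mars1 through its older symbol Mars.

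There was 1 group, measured as poly(A) RNA in 2 libraries labelled replicates 1 and 2. The labels describe G1E as Gata1- progenitors, male, postnatal, 0 day of age, with no treatment named; GATA1 is a transcription factor of red cell maturation. The libraries cite the same biosample, so their spread may be partly or wholly technical, and with 1 group there is no condition to compare. G1E is a cell line, and the data describe its cultures rather than erythroid progenitors of an animal. Reads summed to 31633573 expected counts in replicate 1 and 56978193 in replicate 2. All 8 erythroid progenitor markers examined were at 93.1 TPM or more on average (reads per effective gene length, scaled to a fixed total in each library), while 10 lymphoid, fibroblast and hepatocyte markers were all under 1 TPM. Of 8 granulocyte, monocyte and megakaryocyte markers, Itga2b was the highest at 19.0 and 31.8 TPM, Lyz2 was at 3.20 and 15.7 TPM, and Elane was at 0 in both libraries.

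Each aminoacyl-tRNA synthetase activates 1 amino acid with ATP and transfers it to the tRNAs that carry the matching anticodon. Cytosolic and mitochondrial ribosomes draw on separate charged tRNAs, and all mitochondrial synthetases are encoded in the nucleus and imported. For most amino acids there are therefore separate genes for each compartment, but Gars and Kars each supply both the cytosol and the mitochondrion from 1 gene. Mitochondrial glutaminyl-tRNA is made by an indirect route, in which the glutamyl enzyme Ears2 charges it with glutamate and an amidotransferase converts the product. In mammalian cytosol, 8 of the listed genes encode enzymes held together in a multisynthetase complex. Erythroid cells make very large amounts of haemoglobin, and loss of function of the mitochondrial tyrosyl enzyme gene YARS2 in humans is a known cause of sideroblastic anaemia.

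Several cytosolic synthetase genes are known targets of ATF4, a transcription factor of the amino acid response, and promoter sequence is a feature that the list did not use. RefSeq promoter windows on GRCm38.p6, from 250 bases before to 50 bases after the annotated start, were found for 27 of the 36 members. The letters TGATGNAAT, an ATF4 and C/EBP response element, were searched on both strands. They occurred in 3 of 13 cytosolic genes (Aars, Gars and Iars) and in 0 of 14 mitochondrial genes, while 0.965% of all 32851 promoter windows held them. The stretch of Gars below is shown as an example of the element. It lies before the RefSeq start, at chr6:55037930-55038000, and runs 5′ to 3′ on the + strand, that of the gene, with capitals marking the element, which reads TGATGNAAT on the opposite strand. The match in Iars lies after the start, within the transcribed part, and is not printed.
Gars: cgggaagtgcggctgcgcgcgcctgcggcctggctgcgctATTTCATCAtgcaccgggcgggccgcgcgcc
The E-box CACGTG, which reads the same on both strands and had no match overlapping the other motif, occurred in 4 of 13 cytosolic genes (Aars, Farsb, Iars and Tars), in 1 of 14 mitochondrial genes (Ears2) and in 7.15% of all windows. These are matches of letters only, and no binding of a factor was measured.

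Every listed enzyme gene was expressed. In each library all 36 reached at least 1 TPM, a threshold that 42.5% of protein-coding genes (9118 of 21474) met in both, and 34 were at 10 TPM or more. The cytosolic genes had a median of 117 TPM (replicate 1) and 120 TPM (replicate 2); paired values below follow this order. The mitochondrial genes had medians of 19.2 and 20.9 TPM. The median of all expressed protein-coding genes was 23.1 and 22.5 TPM, so the typical cytosolic enzyme gene was far above it and the typical mitochondrial one close to it. On the log2(TPM + 1) scale the class medians differed by 2.53 in replicate 1 and 2.46 in replicate 2, a mean difference of 2.50 ± 0.048 (SD, n = 2), or 5.65-fold. The difference was much larger than its spread between the libraries. No p-value is given, since genes are not replicates of a condition and 2 libraries cannot reach a two-sided permutation p below 0.5. Of the 20 cytosolic genes, 17 had a higher mean than every mitochondrial gene other than Lars2, and 14 of 16 mitochondrial genes had a lower mean than every cytosolic gene. Lars2 and Tars2 were the exceptions.

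**Figure D1:**
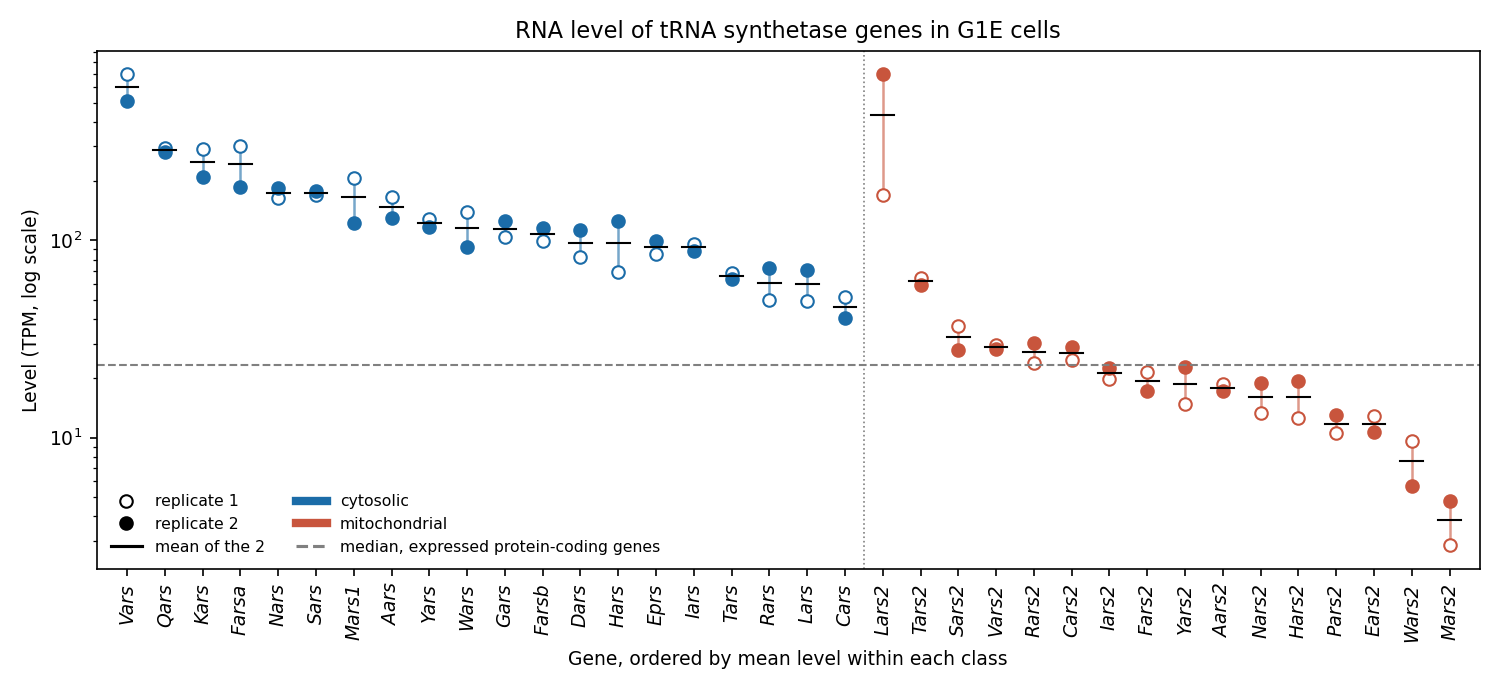
RNA level (TPM, log axis) of the 36 genes in each library, ordered by mean within each class; open circles are replicate 1, filled circles replicate 2, bars the mean of the 2, and the dashed line the median of expressed protein-coding genes, 23.5 TPM. Cytosolic genes run from 45.9 to 603 TPM on average, and the mitochondrial gene Lars2 stands apart from its class and differs most between the libraries.

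Vars, the cytosolic valyl enzyme, which associates with the elongation factor complex eEF1, had the highest mean level of all members. It was at 697 and 508 TPM, a mean of 603 ± 133 TPM (SD, n = 2), which placed it above 99.2% of protein-coding genes. In replicate 2 the mitochondrial gene Lars2 was higher than Vars, at 695 TPM. Qars, the glutaminyl enzyme, was at 294 and 280 TPM. Kars, the lysyl enzyme, was at 291 and 211 TPM. Farsa, the catalytic subunit of the cytosolic phenylalanyl enzyme, was at 303 and 187 TPM. The ranges of Qars, Kars and Farsa overlapped, so their order is not resolved by these libraries, and all of them were below Vars in both.

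A middle group of cytosolic genes lay between 92.2 TPM (Iars) and 175 TPM (Nars) on average. Nars, the asparaginyl enzyme gene, was at 165 and 185 TPM. Sars charges serine and also the tRNA on which selenocysteine is made, and its gene was at 169 and 178 TPM. Mars1 charges initiator and elongator methionine tRNA, and its gene was at 208 and 123 TPM. Aars, the alanyl enzyme gene, was at 165 and 131 TPM. The ranges of Nars, Sars and Mars1 overlapped, and Aars overlapped Nars and Mars1 but lay below Sars. Yars, the tyrosyl enzyme gene, was at 129 and 117 TPM. Wars, the tryptophanyl enzyme gene, which is induced by interferon in many cell types, was at 140 and 92.4 TPM. Gars, the glycyl enzyme gene for both compartments, was at 104.2 and 126 TPM. Farsb, the regulatory subunit of the phenylalanyl enzyme, was at 99.4 and 116 TPM. Dars, the aspartyl enzyme gene, was at 82.3 and 112 TPM, and Hars, the histidyl enzyme gene, was at 68.8 and 125 TPM, the widest spread among cytosolic genes as a ratio (1.82). Eprs, which joins the glutamyl and prolyl enzymes in 1 protein, was at 84.9 and 99.6 TPM, and Iars, the isoleucyl enzyme gene, at 95.9 and 88.4 TPM. From Yars to Iars the ranges ran into one another.

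The lowest cytosolic genes were Tars, Rars, Lars and Cars. Tars, the threonyl enzyme gene, was at 68.1 and 64.0 TPM. Rars, for arginine, was at 49.7 and 72.5 TPM. Lars, the leucyl enzyme gene, whose product is also known as a leucine sensor for mTORC1, was at 49.4 and 71.1 TPM. Cars, for cysteine, was at 51.4 and 40.4 TPM. Only the order of Tars above Cars held in both libraries with no overlap.

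Among mitochondrial genes, Lars2 (leucine) was at 170 and 695 TPM, and Tars2 (threonine) was at 64.6 and 59.5 TPM. Without Lars2 the class reached no further than Tars2. A next group held Sars2 at 36.9 and 27.8 TPM, Vars2 at 29.6 and 28.3 TPM, Rars2 at 24.0 and 30.3 TPM and Cars2 at 24.7 and 28.9 TPM. These charge serine, valine, arginine and cysteine, and their ranges overlapped. Iars2 was at 19.9 and 22.4 TPM, Fars2 at 21.4 and 17.2 TPM, Yars2 at 14.8 and 22.7 TPM and Aars2 at 18.6 and 17.2 TPM. They charge isoleucine, phenylalanine, tyrosine and alanine, and Fars2 works as a single chain where the cytosolic phenylalanyl enzyme has subunits. Nars2 was at 13.3 and 18.8 TPM, Hars2 at 12.5 and 19.5 TPM, Pars2 at 10.5 and 13.0 TPM and Ears2 at 12.8 and 10.7 TPM. Human HARS2 and LARS2 are both known as genes of Perrault syndrome, which combines hearing loss with ovarian failure. The lowest members were Wars2 at 9.56 and 5.68 TPM and Mars2 at 2.84 and 4.75 TPM. The annotated Mars2 transcript is 11294 nt long, so its 746 and 2419 counts, more than those of Wars2 (485 and 743), gave a lower level per length.

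Summed over genes, the cytosolic enzymes took 0.393% and 0.390% of the TPM of protein-coding genes. The mitochondrial enzymes took 0.0576% and 0.136%, and 0.0374% and 0.0435% without Lars2. Within the cytosolic class, the 8 genes of the multisynthetase complex had medians of 90.4 and 106 TPM, against 134 and 125 TPM for the 12 genes outside it. The complex genes spanned 60.2 TPM (Lars) to 287 TPM (Qars) on average, and this range lay wholly inside that of the other genes (45.9 to 603 TPM). Synthetases fall into structural classes I and II, which differ in the fold of the catalytic domain. The 9 cytosolic class I genes had medians of 129 and 92.4 TPM and the 10 class II genes 134 and 128 TPM, Eprs holding a catalytic domain of each. The mitochondrial class I and class II genes had medians of 19.9 and 22.7 TPM and of 18.6 and 18.8 TPM. The medians of the structural classes thus lay much closer together than those of the compartments.

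For each amino acid with a gene for either compartment, the difference in log2(TPM + 1) was taken within each library, which gave 17 pairs, with Eprs and Fars2 each used for a pair of comparisons. A pair was called where the difference was 2-fold or more in each library with the same sign. The cytosolic gene was the higher one in 16 of 17 pairs on average, 15 pairs were called, and the cytosolic gene was higher in 14 of those. Of all pairs of expressed protein-coding genes, 59.3% met the same criterion in 1 direction or the other, so a 2-fold difference between genes is in itself common. The median difference over the pairs was 2.68, with a median SD between libraries of 0.28.

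Over all transcripts the widest pair was methionine; with coding transcripts only, the pairs for tryptophan (mean 5.05) and valine (4.91) exceeded it (4.57). Mars1 exceeded Mars2 by 5.77 in replicate 1 and 4.43 in replicate 2, a mean of 5.10 ± 0.95 (SD, n = 2) or 34.3-fold on this scale, with Mars2 measured over the long annotated transcript noted above. Vars exceeded Vars2 by 4.51 and 4.12. Wars exceeded Wars2 by 3.74 and 3.81, the narrowest spread of the wide pairs. Farsa exceeded Fars2 by 3.76 and 3.37, and Farsb exceeded Fars2 by 2.16 and 2.68. Farsa and Farsb encode subunits that assemble in equal numbers, and over all transcripts Farsa was the higher of them by 1.60 and 0.69. With coding transcripts only, Farsa was at 44.4 and 108 TPM and Farsb at 9.82 and 100.4 TPM, close together in replicate 2 only. Nars exceeded Nars2 by 3.53 and 3.23 and Aars exceeded Aars2 by 3.08 and 2.85. Eprs exceeded its mitochondrial counterparts to a like degree, by 2.64 and 3.11 against Ears2 and by 2.90 and 2.84 against Pars2. The pairs for tyrosine (3.04 and 2.31), histidine (2.37 and 2.63), serine (2.17 and 2.64) and isoleucine (2.21 and 1.93) came next, all past 2-fold in both libraries.

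At the other end, 4 pairs were near or below the 2-fold line. Rars exceeded Rars2 by 1.02 and 1.23, just past it, and by 0.95 in replicate 1 with the authors' posterior mean TPM, which does not meet it. Cars exceeded Cars2 by 1.03 in replicate 1 and 0.47 in replicate 2 and was not called. Tars and Tars2 differed by 0.08 and 0.10, so in these cells the genes of this pair had nearly equal transcript levels. Lars was lower than Lars2, by -1.77 in replicate 1 and -3.27 in replicate 2, the only pair in which the mitochondrial gene was higher.

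**Figure D2:**
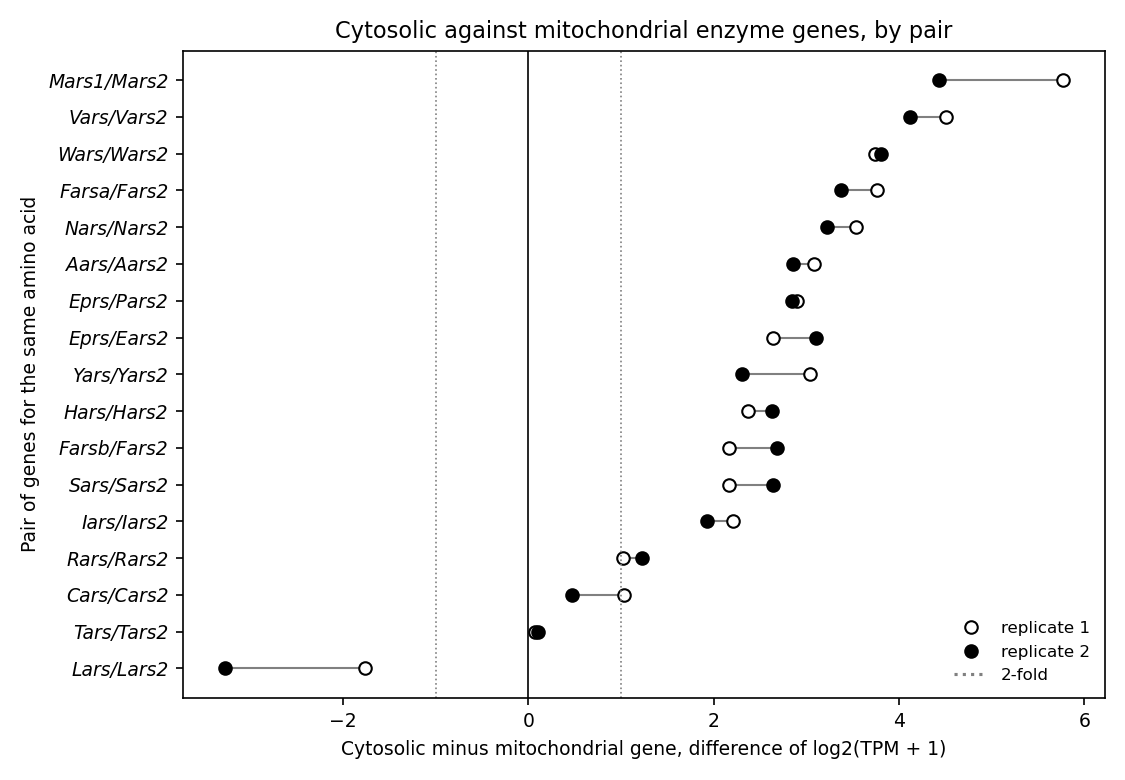
Difference in log2(TPM + 1) between the cytosolic and the mitochondrial gene for the same amino acid; each row is a pair, open circles are replicate 1, filled circles replicate 2, and dotted lines mark a 2-fold difference. In 14 pairs both libraries lie to the right of the 2-fold line, Cars/Cars2 and Tars/Tars2 do not reach it in both, and Lars/Lars2 lies to the left.

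The proteins of a pair can be close relatives or differ widely. Global alignment of the annotated proteins covered at least 80% of the shorter one in 14 pairs, where 22.8% to 70.5% of aligned residues were identical. Hars and Hars2, which are neighbours with opposite orientation on chromosome 18, were the most alike at 70.5% (349 of 495 aligned residues). Tars and Tars2 followed at 55.2%, Vars and Vars2 at 50.6% and Aars and Aars2 at 46.9%. Of these 14 pairs, Lars and Lars2 were the least alike at 22.8%. Farsa/Fars2, Farsb/Fars2 and Yars/Yars2 aligned over less of the shorter protein (69.2%, 16.6% and 14.8%) and were not ranked. Alike proteins did not go with alike levels throughout: Tars and Tars2 were nearly equal in level, while Vars was 19.9-fold above Vars2.

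In most members the libraries gave nearly the same level. TPM differed by less than 2-fold in 35 of 36 genes and by less than 1.5-fold in 27. To compare the libraries, counts were scaled by TMM library sizes (trimmed mean of M values, a scaling that sets most genes at equal level), and genes at least 2-fold apart were counted. Of the members, 2 were apart (5.56%), both higher in replicate 2, namely Lars2 and Farsb. The count depends on the scaling: it was 8 with DESeq2 size factors or TMM from all genes, where 32.3% and 32.5% of all genes were apart, and 1 by the ratio of TPM + 1, where 20.3% were. Of all genes with at least 50 counts 29.5% were apart (3668 of 12414), and of the genes with at least as many counts as the lowest member, 1228 in total, 19.1% were. The median absolute log2 ratio was 0.32 over the members and 0.59 over all genes tested. The latter include genes with as few as 50 counts, and no median was taken at counts like those of the members.

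Lars2 had 15294 counts in replicate 1 and 120662 in replicate 2, the highest count of any member, and its scaled ratio was 4.22-fold (log2 2.08). No other member came near this ratio. The authors' posterior mean TPM for Lars2 was 163.5 and 668.9, with credibility intervals of 161 to 166 TPM and 665 to 673 TPM. These intervals lie around the posterior mean and below the TPM given above. They were far apart, so the gap was far beyond counting error. Other transcripts named after their values were seen moved in the same direction. Gm42418 and Gm26917, annotated loci that hold ribosomal RNA sequence, were at 3340 and 1638 TPM in the first library and at 15344 and 7233 TPM in the second. The mitochondrial ribosomal RNAs mt-Rnr1 and mt-Rnr2 were at 87.4 and 114 TPM and then at 291 and 462 TPM. A sequence search of the annotated Lars2 transcript (3894 nt) against all other transcripts found short stretches alike in AA474408 (94.8% identity over 97 nt) and in Gm15564 (98.6% over 72 nt), all within the 3′ untranslated region of Lars2. Gm15564 was at 7.90 and 25.3 TPM, whereas AA474408 was at 7.36 and 0.58 TPM. The part of ribosomal RNA content or of these stretches in the level of Lars2 was not tested.

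Farsb had 2366 counts in replicate 1 and 9810 in replicate 2, a scaled ratio of 2.22-fold, while its TPM differed little (99.4 and 116). In replicate 1 a transcript of 449 nt (Farsb-205, processed transcript) took 56.9% of its TPM, and in replicate 2 the coding transcript of 1951 nt (Farsb-201) took 71.5%; a short transcript needs fewer reads to reach the same level. Farsb also shares 7.90% of its 36-base words with other genes, most with Sgpp2, which overlaps it on the other strand.

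Among the members the ratio of replicate 2 to replicate 1 went with base composition. Genes of low GC content tended to be higher in replicate 2 and genes of high GC content in replicate 1, with Pearson's r of -0.57 and Spearman's rho of -0.67 over 36 genes, and -0.65 and -0.68 without Lars2. Over 12330 genes the values were -0.19 and -0.39. These are descriptions across genes of the same 2 libraries, which also differ in depth and read length (36 nt and 55 nt), and genes are not independent replicates. Mars2, at 38.8% GC, had a log2 ratio of 0.80, and Vars, at 59.9% GC, one of -0.27. With the trend over all genes subtracted, an alternative chosen after seeing the data, Lars2 was past 2-fold at 2.02, and Farsb was at 0.83. The same step moved Mars2 to -0.57 and Dars from 0.53 to -0.56.

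**Figure D3:**
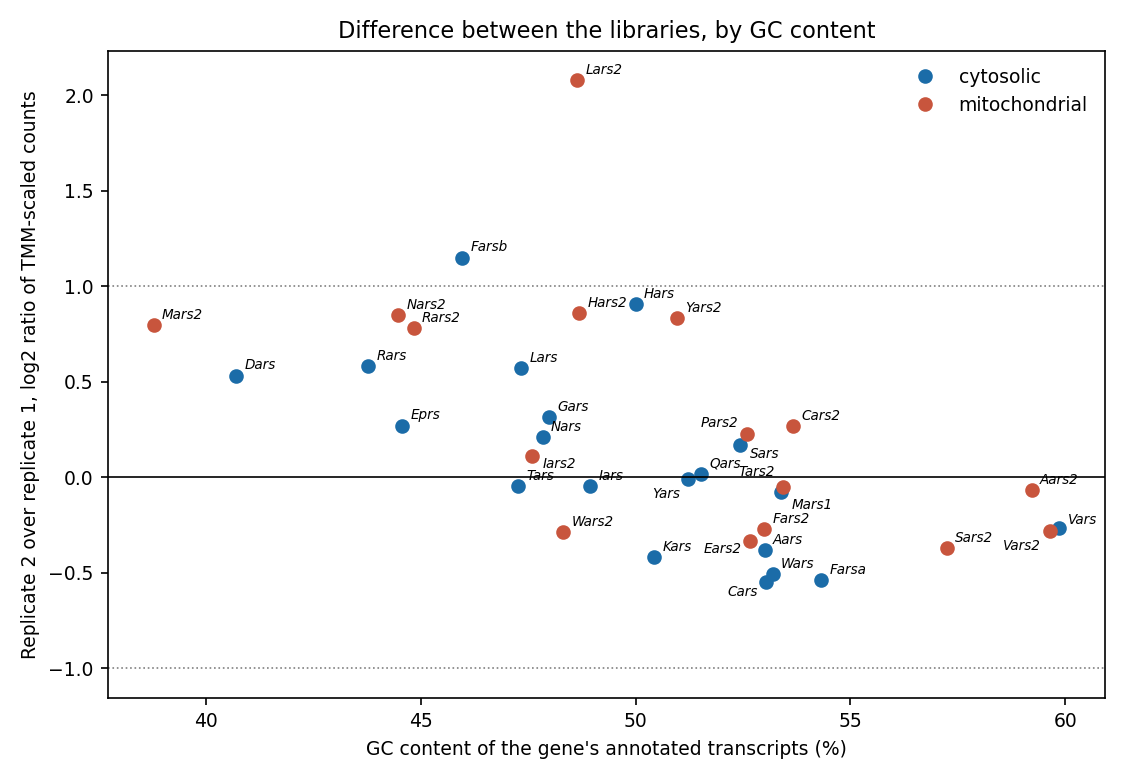
Log2 ratio of TMM-scaled counts, replicate 2 over replicate 1, against the GC content (%) of each gene's annotated transcripts; each point is a gene, coloured by class, and dotted lines mark 2-fold. Points fall from left to right, and only Lars2 (2.08) and Farsb (1.15) lie outside the dotted lines.

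The transcript tables divide each gene's reads among its annotated transcripts. Of the members, 10 had 1 transcript, among them Gars, Lars2, Mars2 and Lars. Among the 26 with several, the same transcript led in both libraries in 17, next to 69.3% of expressed protein-coding genes of that kind (4719 of 6807). The transcript that led differed in Farsa, Farsb, Mars1, Qars, Hars2, Rars2, Tars2, Wars2 and Yars2, and in all of these but Mars1 and Tars2 it was annotated as non-coding, retaining an intron or subject to nonsense-mediated decay in at least 1 library. Over all members the median share of TPM in protein-coding transcripts was 97.2% in replicate 1 and 97.1% in replicate 2.

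Those medians include the 10 members with 1 transcript, which are fixed at full share; over the 26 with several they were 81.0% and 87.0%. In both libraries 22 of the 36 members were at 80% or more, and 12 of these had several transcripts. The same share over all genes was not taken. The members under 80% include some of the highest genes by TPM. Qars, with 18 transcripts, had 18.4% and 16.1% of its TPM in protein-coding transcripts. One further Qars transcript, with 12.1% and 17.4% of the TPM, had no entry in the annotation release used here and is counted as not coding. The leading transcript of the gene was Qars-205 in replicate 1, a retained intron of 462 nt at 21.6%, and Qars-216 in replicate 2, a nonsense-mediated decay transcript at 20.7%. By counts the coding share of Qars was 44.2% and 39.5%, since short fragments weigh more per read in TPM. Vars had 63.7% and 58.3% of its TPM in coding transcripts. Counting coding transcripts alone, Vars was still the highest cytosolic gene, at a mean of 369.9 ± 104.3 TPM (SD, n = 2), while Qars dropped from rank 3 among the members to rank 21, at 49.5 ± 6.2 TPM.

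In 4 genes the coding share differed widely between the libraries. Farsa had 14.7% and 57.8%, led in replicate 1 by Farsa-206, a nonsense-mediated decay transcript at 53.6%, and in replicate 2 by the coding Farsa-202 at 30.4%. Farsb had 9.88% and 86.6%. Yars2 had 24.4% and 95.9%, led by a retained-intron transcript of 1412 nt at 75.6% and then by a coding transcript of 1574 nt at 89.6%. Rars2 had 18.02% and 52.2%, led by a processed transcript of 526 nt at 54.5% and then by a coding transcript of 1868 nt at 42.0%. Replicate 2, the deeper library with longer reads, had the higher share in each of these 4 genes, which were named for their wide differences. Other members went the other way, among them Cars (85.0% and 67.1%) and Pars2 (99.1% and 90.3%). The part of depth and read length was not tested. In Mars1 the coding transcripts Mars-203 (621 nt, 28.2%) and Mars-201 (2939 nt, 27.8%) were nearly level in replicate 1, and Mars-201 led in replicate 2 at 67.6%; by counts Mars-201 led in both. Tars2 was led by coding transcripts in both libraries, of 2263 nt at 62.6% in replicate 1 and of 2506 nt at 48.1% in replicate 2. The shares of Wars2 (33.1% and 27.6%) and Vars2 (39.2% and 37.6%) were low in both. With coding transcripts only, 14 pairs were called, Rars against Rars2 widened to 3.25 and 2.11, and Farsb against Fars2 was no longer called, at -1.05 and 2.48. Farsa against Fars2 narrowed to 1.02 and 2.59, and Wars against Wars2 widened to 4.97 and 5.13.

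**Figure D4:**
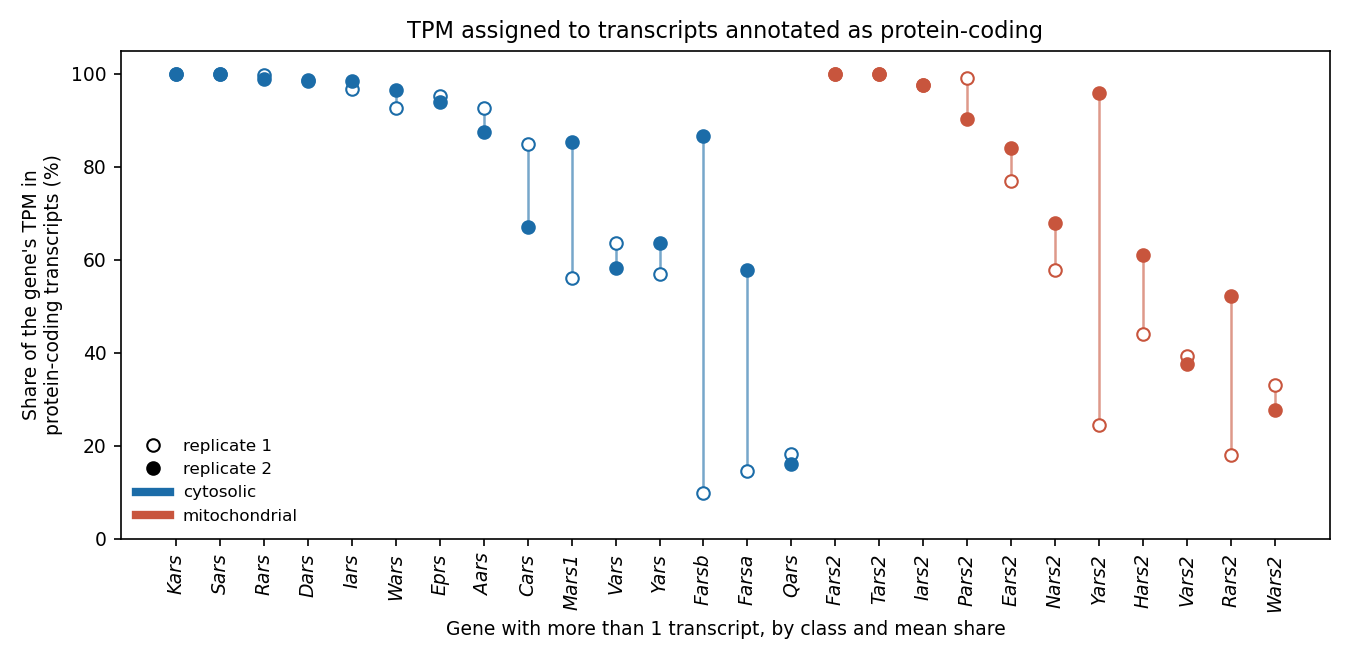
Share of each gene's TPM (%) assigned to transcripts annotated as protein-coding, for the 26 members with more than 1 transcript, ordered by class and mean share; open circles are replicate 1 and filled circles replicate 2. In both libraries 12 genes lie above 80%, Qars lies under 20% in both, and Farsb, Farsa, Yars2 and Rars2 are split between the libraries.

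Kars shows how 1 gene serves both compartments. Alternative splicing gives a shorter enzyme for the cytosol and a longer one with a mitochondrial targeting segment. Kars-201, which encodes 595 residues, took 84.6% of the gene's TPM in replicate 1 and 78.2% in replicate 2. Kars-202 took 12.6% and 17.2%, and Kars-203 took 2.84% and 4.67%; both are annotated with 624 residues. The longer form thus made up 18.6% ± 4.6 (SD, n = 2) of the transcript level, or 44.9 and 46.0 TPM in the libraries. That sum lay above the level of every mitochondrial synthetase gene other than Lars2 and Tars2. For Gars, whose mitochondrial and cytosolic forms are known to arise from alternative start codons, the single transcript of the tables (729 residues) cannot separate them.

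Other genes of the pathway were counted from lists. All 3 scaffold proteins of the multisynthetase complex were expressed. Aimp2 was at 112 and 102 TPM, Aimp1 at 34.2 and 84.4 TPM, and Eef1e1 at 53.9 and 52.7 TPM, within or just below the range of the 8 enzymes they hold. All 4 genes of the mitochondrial glutamine route and of formylation of the initiator tRNA were expressed, with medians of 13.9 and 13.7 TPM, near those of the mitochondrial synthetases. In this list Gatc (23.3 and 21.3 TPM) and Gatb (14.5 and 15.7 TPM), subunits of the amidotransferase, were the highest, and Qrsl1 (3.56 and 4.85 TPM), its catalytic subunit, was the lowest. All 8 mitochondrial translation factors were expressed, with medians of 25.4 and 24.7 TPM. Tufm, which brings charged tRNA to the mitochondrial ribosome, was the highest at 170 and 124 TPM, followed by its exchange factor Tsfm at 41.4 and 43.0 TPM, and the release factor gene Mtrf1l was the lowest at 3.86 and 5.39 TPM.

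Most of the cytosolic factors that take over charged tRNA were at high levels. Eef1a1, which carries charged tRNA to the ribosome, was at 11421 and 9832 TPM and its exchange factor subunit Eef1b2 at 992 and 1631 TPM. Of 5 genes in this list 4 were expressed, Eef1a2, the form of muscle and neurons, being at 0.04 and 0 TPM. All 8 genes for proofreading, export and other charging were expressed, led by the tRNA exporter Xpot at 58.3 and 62.5 TPM and by Aarsd1, a proofreading enzyme for alanine tRNA, at 34.2 and 63.2 TPM, with Sepsecs, which makes selenocysteinyl-tRNA, the lowest at 15.5 and 18.9 TPM. Of ATF4 and its known targets 7 of 8 genes were matched and 5 were expressed. Asns, asparagine synthetase, was at 373 and 1012 TPM and Shmt2, a mitochondrial serine hydroxymethyltransferase, at 797 and 501 TPM, while Chac1 was at 0 and 0.01 TPM. Atf4 itself, looked up beyond the naming rule, was at 54.4 and 49.5 TPM. High and absent genes stood side by side in this list, and the 3 members with the element in their promoter window, Aars, Gars and Iars, ranked 9, 12 and 17 among the 36.

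Some levels rest on reads that other genes could share. Of the members, 28 shared under 5% of their 36-base words with other genes, and 3 shared over 10%, namely Iars2 (23.2%, most with Rab3gap2), Aars (14.2%, most with Exosc6) and Iars (12.3%, most with Gm4849). Exons of 13 members overlapped a gene on the other strand, among them Hars with Hars2 and Mars1 with Ddit3, and whether strand was used in counting is not given in the sources used here, so such values are uncertain. Depth limits the lowest members most. Hars2 had 441 counts in replicate 1, where the authors' interval ran from 10.7 to 14.7 TPM, and 17.1 to 21.2 TPM in replicate 2.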

How the data were processed

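Single-end reads of poly(A) RNA came from 2 libraries of 1 group of G1E cultures; each has a gene and a transcript table, made separately. Per the submitters' processing notes the assembly was mm10 and the annotation release M4; the aligner and quantifier were not given in the sources used here. Expected counts were deposited without normalisation. TPM and FPKM were deposited per effective length, TPM scaled to a fixed total over all entries. The deposited signal columns are a credibility interval of TPM whose level is not stated, beside a posterior mean, and the deposited percent column is a transcript's share of its gene's TPM. Entries naming no gene held 0.0363% and 0.00942% of counts and were left out.

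Symbols, positions, gene types and proteins came from GENCODE release M21 (GRCm38), matched on identifiers without version. The members and gene lists were chosen with earlier results of these data known. All members are given; of each related list the highest and lowest genes are named by mean TPM, and transcripts are named for Gars, Kars, Qars and members whose leading transcript differed or was non-coding. Levels were compared as log2(TPM + 1). Counts were rounded, scaled by edgeR 4.0.16 TMM library sizes (factors 0.982 and 1.02) with 0.5 added, and called at 2-fold among genes with at least 50 counts; with 1 library against 1 no p-value was computed. Alternatives used DESeq2 1.42.0 size factors, FPKM, posterior means, other pseudocounts and filters, and, chosen after seeing the data, TMM from all genes, a GC trend (lowess, span 0.3) and the classes without Lars2. Proteins were aligned with BLOSUM62 in Biopython 1.88, and Lars2 was searched with blastn 2.17.0 (E-value 1e-05).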

Additional observations from a re-analysis of the deposited data

How the results depend on the processing

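The median difference between the classes, 2.50 (log2), was 2.46 and 2.53 in single libraries. It was 2.55 with a pseudocount of 0.1, 2.67 with coding transcripts only, 2.57 without members sharing over 10% of their 36-base words, 2.57 without Lars2 and 2.36 without Gars, Kars and Qars; its SD between libraries was only 0.048, and the direction held in all 11 alternatives. The count of called pairs ran from 13 to 16 and no pair's mean changed direction. The 13 came without members sharing over 10% of their 36-base words, a setting with fewer pairs. It leaves out Aars/Aars2 and Iars/Iars2, both called in the main setting. Besides single libraries, 76 of 85 alternative pair values moved by less than the SD between libraries. FPKM and rescaling over protein-coding genes multiply each library's TPM by a constant, so they could hardly move a pair. The 9 that moved were Eprs/Pars2 and Wars/Wars2 with a pseudocount of 0.1, and the rest with coding transcripts only. With coding transcripts only, Farsa/Fars2, Farsb/Fars2, Hars/Hars2, Nars/Nars2, Rars/Rars2, Vars/Vars2 and Wars/Wars2 moved. Of the members, 2 were at least 2-fold apart between libraries in the main setting, where 29.5% of all genes tested were. The count was 1 by the ratio of TPM + 1 and 1 with the GC trend subtracted, where 20.3% and 22.7% of genes were. It was 8 with DESeq2 size factors, 8 with TMM from all genes and 8 at a 1.5-fold threshold. There 32.3%, 32.5% and 50.6% of all genes tested were apart. DESeq2 size factors and TMM from all genes shifted the median log2 ratio of all genes to 0.27 and 0.28. The 8 members were Farsb, Hars, Hars2, Lars2, Mars2, Nars2, Rars2 and Yars2 under each setting that gave 8. Lars2 was past 2-fold under every scaling tried, at 2.02 to 2.33. The same transcript led in both libraries in 27 members by TPM, counts or FPKM. Of these, 26 were shared between TPM and counts, with Mars1 by counts only and Nars2 by TPM only. Agreement by FPKM was fixed in advance, since FPKM and TPM give a transcript the same share of its gene. The 10 members with 1 transcript could not change either. No paired analysis was possible because there is only 1 group. With 2 libraries the precision of every mean is low.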
